A study of Mus musculus with 10 samples.

Results

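Hepatocytes that had lost p65 were compared directly with hepatocytes that had lost Nrf2, without passing through the control mice. The comparison takes 4 of the 10 libraries of the series, the 2 labelled p65 KO and the 2 labelled Nrf2 KO. A gene entered it where its sum over all 10 libraries reached 10 counts, which 13641 of the 21939 genes in the deposited table did. By the study's account the RNA sequencing used 2 to 3 mice per genotype, which the number of libraries equals. All mice were 8 to 9 week old males that had received AAV8Cre, a viral vector in which the thyroxine-binding globulin promoter restricts Cre recombinase to hepatocytes, and these cells were isolated 12 days later by perfusion, low-speed centrifugation and Percoll density separation. The study gives the background of its mice with floxed alleles as that of its wild-type C57BL6/j mice. The p65 KO mice carried floxed p65 alleles (p65 flox/flox) and the Nrf2 KO mice floxed Nrf2 alleles (Nrf2 flox/flox). The 3 DKO mice carried both, and the 3 control mice were C57BL6/j animals that had received the same virus. These 6 further libraries entered the scaling and the estimate of the spread, and are shown for orientation only. Every difference below is therefore one between mouse lines as well as between deleted genes, and these cannot be told apart.

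Nrf2, encoded by Nfe2l2, is a transcription factor that is held inactive by Keap1 and released by electrophiles and oxidants. It binds antioxidant response elements and maintains the enzymes that conjugate, reduce and export reactive compounds in the liver. The p65 protein, encoded by Rela, is the main transactivating subunit of NF-κB, which is released from inhibitory IκB proteins after cytokine or microbial signals and drives genes of inflammation, acute-phase response and cell survival. Both factors are active in the same hepatocytes, and each single knockout removes a regulator of the oxidant or of the inflammatory stress response.

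The total estimated counts were 33707165 and 36267805 in the p65 KO libraries and 37483082 and 49897382 in the Nrf2 KO libraries, against 35357766 to 42518454 in the other 6. Replicates of the same genotype differed by more than counting error allows (chi-square over its degrees of freedom, 53.9 in p65 KO and 44.8 in Nrf2 KO). Nfe2l2 (chromosome 2, 75504739 to 75534985, GRCm39) had 4739 and 5005 normalized counts (counts scaled to a common library size) in the Nrf2 KO and 1993 and 1997 in the p65 KO libraries, which were in the control range of 1990 to 2318. It was thus higher in the libraries from which it should have been deleted, with a log2 fold change of -1.29 for p65 KO over Nrf2 KO (standard error, SE, 0.176, adjusted p = 0.00281). Rela (chromosome 19, 5687493 to 5698161) had 1183 and 1209 normalized counts in p65 KO and 1268 and 1225 in Nrf2 KO, a difference of -0.06 (SE 0.151, adjusted p = 0.833). The DKO libraries, also from mice with floxed Nrf2, had 4111, 3434 and 5240 for Nfe2l2. A total per gene includes any transcript that lacks the deleted exons, so neither total checks the deletion, and the genotypes are those of the labels. The study itself reported the knockouts in isolated hepatocytes 12 days after the virus by RT-qPCR and Western blot.

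A gene was called when edgeR's quasi-likelihood test with Benjamini-Hochberg adjustment gave an adjusted p of at most 0.05 and the log2 fold change was at least 1 in either direction. Positive values mean higher in p65 KO. Of the 13641 genes, 708 were called (5.19%), of which 527 (3.86%) were higher in p65 KO and 181 (1.33%) were higher in Nrf2 KO. Among all genes tested, both p65 KO libraries lay above both Nrf2 KO libraries in 4356 (31.9%) and below them in 4155 (30.5%), and the median log2 fold change was 0.01. Of the calls, 74.4% were higher in p65 KO with TMM scaling and 85.9% (672 of 782) when libraries were scaled to their totals, which moved the median of all genes to 0.18. With 2 libraries per genotype the number of calls depended on every library. It was 234 without Nrf2 KO replicate 1, 241 without Nrf2 KO replicate 2, 279 without p65 KO replicate 1 and 352 without p65 KO replicate 2. Without Nrf2 KO replicate 2, 117 genes were higher and 124 lower in p65 KO.

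**Figure D1:**
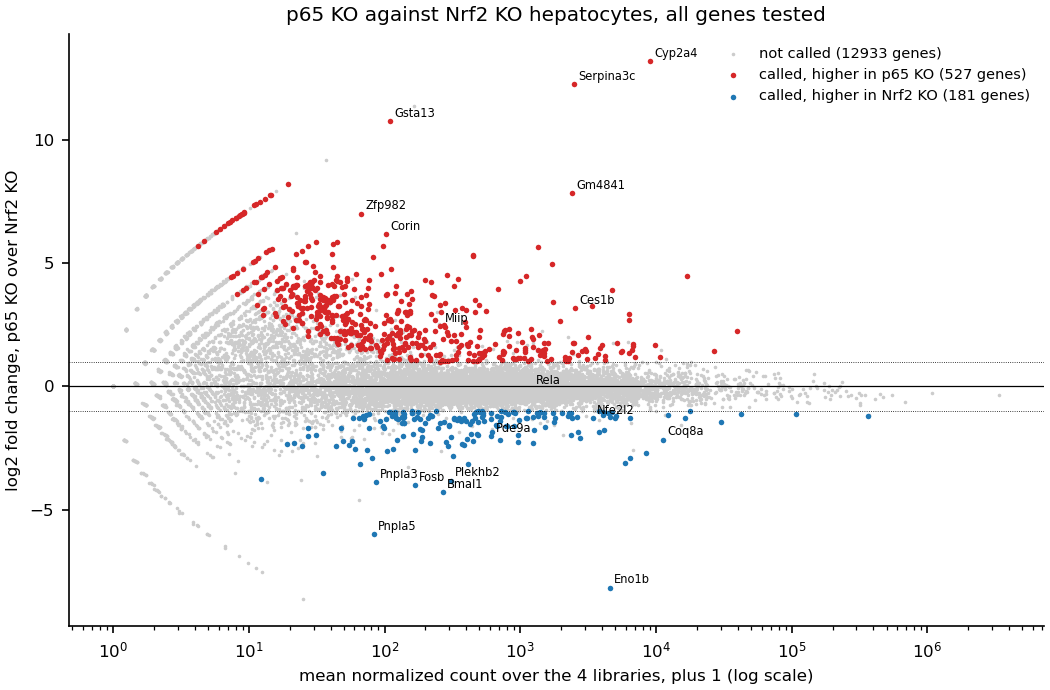
Log2 fold change of p65 KO over Nrf2 KO (y axis) against the mean normalized count over the 4 libraries plus 1 (x axis, log scale), with 1 point per gene tested. The 527 genes called higher in p65 KO (red) extend to a log2 fold change of 13.21 for Cyp2a4, and the 181 called higher in Nrf2 KO (blue) to -8.17 for Eno1b, whereas Rela lies at -0.06.

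The other genotypes were placed on the axis between both knockouts, on log2 of the normalized count plus 1. The control mean was nearer to Nrf2 KO in 594 of the 708 called genes (83.9%, against 67.1% of all genes tested). The DKO mean was nearer to Nrf2 KO in 377 (53.2%, against 56.2% of all genes tested). It was nearer to Nrf2 KO in 132 of the 181 genes called higher in Nrf2 KO, and in 245 of the 527 called higher in p65 KO. These placements are descriptions, and no test was made of them.

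The genes with the largest differences were near the limit of detection in one knockout and abundant in the other. Serpina3c, a member of the α1-antichymotrypsin family of serine protease inhibitors (chromosome 12, 104110471 to 104141177), had 4586 and 5314 normalized counts in p65 KO and 0 and 1.62 in Nrf2 KO. Both p65 KO libraries stood apart from all 8 others, whose highest value was 9.83. The 2 reads in Nrf2 KO gave a ratio of 5580 with a 95% counting interval from 1544 to 46080 (adjusted p = 6.4e-07). Reads can be shared within its family. The sum over 8 Serpina3 genes was lower in p65 KO, with 317609 and 378226 against 403483 and 415211 in Nrf2 KO, a ratio of 0.85. Serpina3c is a small part of this sum, and both p65 KO sums differ from each other by more than its counts. The sum thus cannot tell whether reads of Serpina3c were shared. Gm4841, an interferon-inducible GTPase, had 4480 and 5104 normalized counts in p65 KO against 24.7 and 17.8 in Nrf2 KO, a log2 fold change of 7.82 (SE 0.314, adjusted p = 6.4e-07). Again no other library came near, and the DKO libraries had between 20.6 and 38.2. Both calls held without any 1 of the 4 libraries.

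Cyp2a4 and Cyp2a5, neighbouring cytochrome P450 genes of steroid and coumarin hydroxylation on chromosome 7, shared the same pattern. Cyp2a4 (26006594 to 26014513) had 18096 and 17985 normalized counts in p65 KO and 2.97 and 0.81 in Nrf2 KO, with a log2 fold change of 13.21 (SE 2.45, adjusted p = 0.0118). Control libraries had between 4.92 and 47.6, whereas the DKO libraries spread from 11.4 to 5039. Cyp2a5 (26534730 to 26542973) had 28927 and 36009 normalized counts in p65 KO and 1059 and 1897 in Nrf2 KO, a log2 fold change of 4.46 (SE 0.724, adjusted p = 0.00675). Since the 2 genes are near-identical copies, reads can be assigned to either, and the split between them is uncertain. Their sum was 47023 and 53995 in p65 KO and 1062 and 1898 in Nrf2 KO, which is 34.1 times higher. The adjusted p for Cyp2a4 was 0.0811 without Nrf2 KO replicate 1 and 0.102 without replicate 2, and that for Cyp2a5 was 0.0608 without replicate 1.

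Further genes higher in p65 KO came from different functions. Corin, which encodes the protease that activates atrial natriuretic peptide, had 231 and 168 normalized counts in p65 KO and 1.98 and 3.23 in Nrf2 KO, a log2 fold change of 6.17 (adjusted p = 0.0023). Bhlha15, a transcription factor of secretory cells also known as Mist1, had 237 and 77.5 against 3.95 and 4.04, with a log2 fold change of 5.25 (adjusted p = 0.00184). Tsku, a secreted proteoglycan made by the liver, had 1955 and 4699 against 165 and 54.2, a log2 fold change of 4.94 (adjusted p = 0.0182). A lack of overlap between the groups was a condition for naming these genes, and p65 KO replicates differed from each other by several fold in Bhlha15. Corin and Bhlha15 stayed called without any 1 of the 4 libraries. Tsku missed the threshold without Nrf2 KO replicate 1, Nrf2 KO replicate 2 or p65 KO replicate 2 (adjusted p between 0.0617 and 0.137).

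Among the genes higher in Nrf2 KO, Eno1b, a second enolase 1 gene, led with 8624 and 9629 normalized counts against 18.3 and 44.4 in p65 KO, a log2 fold change of -8.17 (SE 0.563, adjusted p = 6.62e-05). Both Nrf2 KO libraries stood apart from all others. Eno1, the glycolytic enolase, moved the other way, with 6399 and 6870 in Nrf2 KO and 12905 and 16948 in p65 KO (log2 fold change 1.17, adjusted p = 0.00358). It fell short of the fold threshold at 0.96 without p65 KO replicate 2. The sum of both genes was 15023 and 16498 in Nrf2 KO and 12924 and 16992 in p65 KO, so that the groups overlapped, and the division of reads between both genes is uncertain. Plekhb2, a pleckstrin homology domain protein of recycling endosomes, had 546 and 597 in Nrf2 KO and 40.6 and 39.7 in p65 KO (log2 fold change -3.83, adjusted p = 0.00117). Coq8a, an atypical kinase required for coenzyme Q synthesis, had 21186 and 15673 against 4590 and 3648 (-2.16, adjusted p = 0.000947). Pde9a, a cGMP-specific phosphodiesterase, had 895 and 1065 against 273 and 211 (-2.02, adjusted p = 0.00106). Depp1, a target of FoxO factors, had 14761 and 6589 against 1201 and 1234 (-3.13, adjusted p = 0.00506). Plekhb2, Coq8a, Pde9a and Depp1 were lower in both p65 KO libraries than in both Nrf2 KO libraries, which was a condition for naming Plekhb2 and Depp1. These genes stayed called without any 1 of the 4 libraries. Asap2, an Arf GTPase-activating protein, had 828 and 292 against 90.4 and 69.0 (-2.81). It missed the threshold without Nrf2 KO replicate 1, p65 KO replicate 1 or p65 KO replicate 2 (adjusted p between 0.0921 and 0.114).

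**Figure D2:**
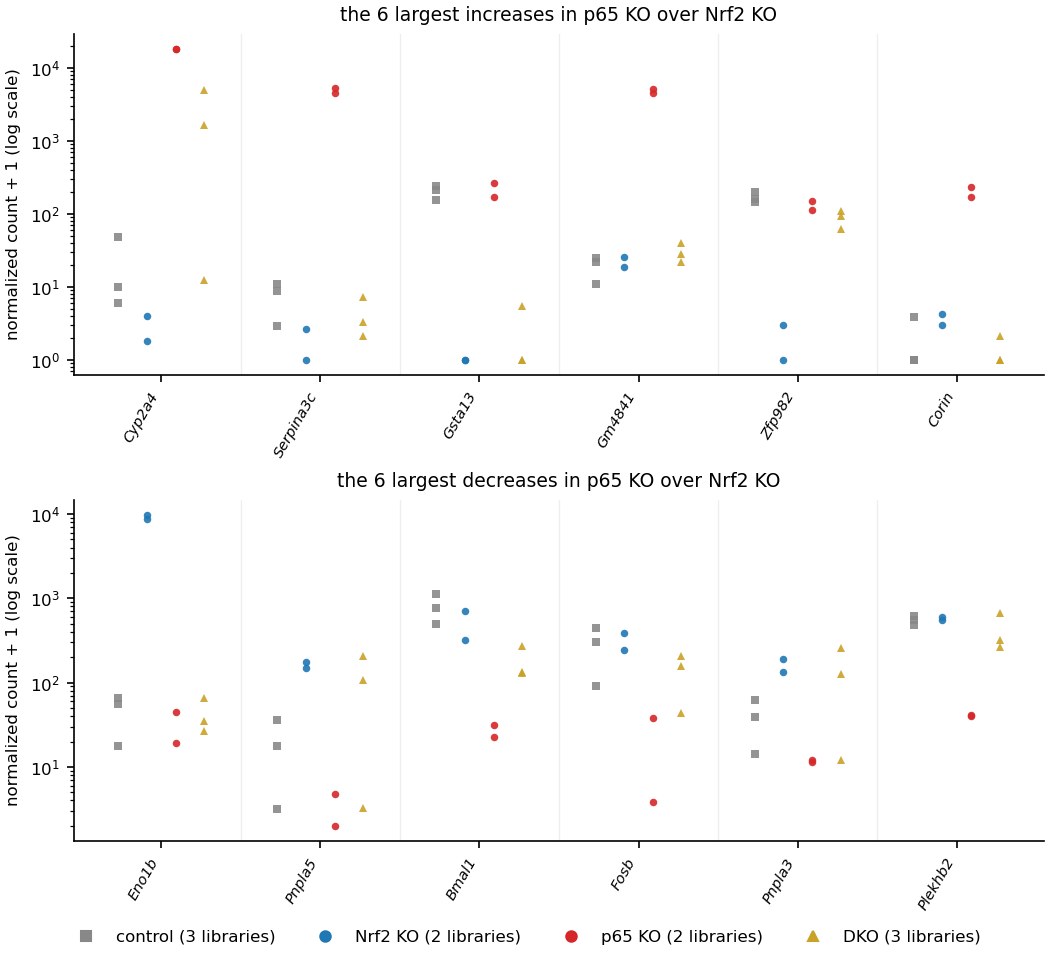
Normalized counts plus 1 (y axis, log scale) of the 6 genes with the largest increase and the 6 with the largest decrease in p65 KO over Nrf2 KO among called genes averaging 50 or more, with 1 symbol per library. The p65 KO libraries (red) stand apart from all others in Serpina3c, Gm4841 and Corin, the Nrf2 KO libraries (blue) in Eno1b, Gsta13 and Zfp982, with DKO also near 0 in Gsta13.

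Several enzymes of conjugation and hydrolysis were lower in Nrf2 KO. Of 23 glutathione S-transferase genes tested, 6 were higher in p65 KO and none lower (median log2 fold change 0.45, against 0.01 over all genes). Of 20 carboxylesterase and UDP-glucuronosyltransferase 2 genes (including Ugdh, which makes UDP-glucuronic acid), 6 were higher and none lower (median 0.51). The other 17 and 14 members were not called, and 9 and 5 members of the lists had negative log2 fold changes. The lists of carbonyl and epoxide detoxification and of transporters had 2 of 19 and 1 of 18 higher, with none lower, where 3.86% of all genes were called higher, so that the single transporter is no result about its list. Without any 1 of the 4 libraries, between 4 and 5 transferases and between 4 and 7 of the esterase and glucuronosyltransferase list were called.

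Gstm3, a mu-class transferase that conjugates electrophiles to glutathione, had 6126 and 6020 normalized counts in p65 KO and 799 and 477 in Nrf2 KO, a log2 fold change of 3.25 (SE 0.436, adjusted p = 0.00262). The alpha-class gene Gsta1 had 213 and 365 against 28.7 and 12.1 (3.85, adjusted p = 0.00814). Gsta13 (chromosome 9, 78164411 to 78176451) had 171 and 263 in p65 KO and no count in either Nrf2 KO library, which is at least 80.4-fold higher in p65 KO when the floor is set at 3 counts per library (adjusted p = 0.00117). The groups were well separated in all of these, which was a condition for naming Gsta13. The remaining called members were Gsta2, Gstm1 and Gstm2. Reads of Gsta1, Gsta2 and Gsta13 can be shared, and their sum was 1275 and 1739 in p65 KO against 339 and 319 in Nrf2 KO, 4.58 times higher. Gstm3 and Gsta13 stayed called without any 1 of the 4 libraries, whereas Gsta1 missed the threshold without Nrf2 KO replicate 2 (adjusted p = 0.0731).

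Ces1b and Ces1g, carboxylesterases that hydrolyse esters of drugs and lipids, and Ces2c, a triglyceride-hydrolysing relative, changed most in their list. Ces1b (chromosome 8, 93780578 to 93806709) had 4579 and 4523 normalized counts in p65 KO and 546 and 455 in Nrf2 KO, a log2 fold change of 3.19 (SE 0.169, adjusted p = 5.75e-06). Ces1g (chromosome 8, 94028683 to 94063953) had 10831 and 11611 against 1721 and 1191 (2.95, SE 0.334, adjusted p = 0.00139). Replicates lay close together in both groups, and both calls held without any 1 library. Ces2c had 1522 and 2488 against 373 and 423 (2.33, adjusted p = 0.015), and missed the threshold unless p65 KO replicate 1 was the library left out (adjusted p between 0.0644 and 0.0913). Ugt2b35, Ugt2b5 and Ugdh were the other called members. Over all 7 Ces1 genes, whose reads may be shared, the sum was 149127 and 161708 in p65 KO and 132449 and 130796 in Nrf2 KO, a ratio of 1.18.

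The promoters of Ces1b and Ces1g are shown because both genes, of the same gene cluster on chromosome 8, differed alike between the knockouts. The sequences are the 250 bases before the RefSeq start on GRCm38.p6, at chr8:93079941-93080190 and chr8:93337210-93337459, each on the minus strand. Capitals mark the D-box TTATGTAA, a site of the clock output factors Dbp, Tef and Hlf and of the repressor Nfil3.
Ces1b: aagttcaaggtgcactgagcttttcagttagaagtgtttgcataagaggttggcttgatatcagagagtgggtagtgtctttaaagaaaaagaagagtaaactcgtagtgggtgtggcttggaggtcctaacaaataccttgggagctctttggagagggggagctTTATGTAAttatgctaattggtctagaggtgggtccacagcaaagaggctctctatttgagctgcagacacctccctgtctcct
Ces1g: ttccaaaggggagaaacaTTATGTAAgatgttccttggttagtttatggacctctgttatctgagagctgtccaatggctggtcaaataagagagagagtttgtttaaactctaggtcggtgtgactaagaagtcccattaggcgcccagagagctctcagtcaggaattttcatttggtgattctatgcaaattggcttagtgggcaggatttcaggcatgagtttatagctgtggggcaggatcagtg
The match lay 84 to 77 bases before the start in Ces1b and 232 to 225 in Ces1g. This motif, on either strand, was found in 5 of the 17 promoters of the list (Ces1b, Ces1c, Ces1e, Ces1g and Ugt2b1), and in 0.578% of the 10562 promoters matched to genes tested. Ces1c and Ces1e also carried the motif, with log2 fold changes of -0.01 and -0.03. The core of the antioxidant response element, TGACNNNGC, stood in 3 of 20 transferase promoters and 12.0% of all promoters, and in 11.9% of the promoters of genes higher and 11.3% of those of genes lower in p65 KO. A match describes letters only.

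Aox1, aldehyde oxidase, had 4093 and 3435 normalized counts in p65 KO and 1228 and 990 in Nrf2 KO (log2 fold change 1.76, adjusted p = 0.00191). Abcc3, which exports glucuronides across the basolateral membrane (chromosome 11, 94233874 to 94283823), had 10123 and 7721 against 1048 and 137 (3.92, SE 0.721, adjusted p = 0.0114). Nrf2 KO replicates differed by several fold in Abcc3, but both lay below every control and p65 KO library, and both calls held without any 1 library. Akr1c19, an aldo-keto reductase, had a log2 fold change of 1.15 (adjusted p = 0.012). It missed the threshold without Nrf2 KO replicate 1, Nrf2 KO replicate 2 or p65 KO replicate 2 (adjusted p between 0.059 and 0.0814).

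By contrast, the glutathione-synthesis and redox genes differed little between the knockouts, which does not mean that they equalled control. Of 21 tested, Hmox1 and Nqo1 were higher in p65 KO and none was lower, with a median log2 fold change of 0.09. Hmox1, heme oxygenase 1, had 680 and 438 normalized counts in p65 KO and 176 and 175 in Nrf2 KO (1.67, adjusted p = 0.00243). Its Nrf2 KO libraries lay near the control mean of 206, and its p65 KO libraries above it. Nqo1, the quinone reductase, had 199 and 207 in p65 KO, near the control mean of 194, and 84.0 and 63.0 in Nrf2 KO (1.47, adjusted p = 0.0161). Nqo1 missed the threshold without any 1 of the 4 libraries (adjusted p between 0.0574 and 0.131). For the other 19 genes, including Gclc (log2 fold change -0.12), Gclm (0.09), Txnrd1 (0.53) and Srxn1 (0.55), the adjusted p was above 0.05. The control means of Gclc, Gclm, Txnrd1 and Srxn1 were 23065, 8468, 5619 and 1974, and each lay above all 4 knockout libraries. Gclc had 10523 and 9409 normalized counts in Nrf2 KO and 10823 and 7563 in p65 KO.

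In the 4 lists of conjugation, hydrolysis, carbonyl detoxification and transport, all 15 called members had their control mean nearer to p65 KO and their DKO mean nearer to Nrf2 KO. Over all called genes the control mean was nearer to p65 KO in 114 of 708. Among the 527 called higher in p65 KO, the control mean was nearer to p65 KO in 86 and the DKO mean nearer to Nrf2 KO in 245. Related lists differed. Of the 2 called redox genes, the control mean was nearer to p65 KO in 1. Of the 3 called cytochrome P450 genes of drug metabolism, all 3 had it nearer to Nrf2 KO.

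**Figure D3:**
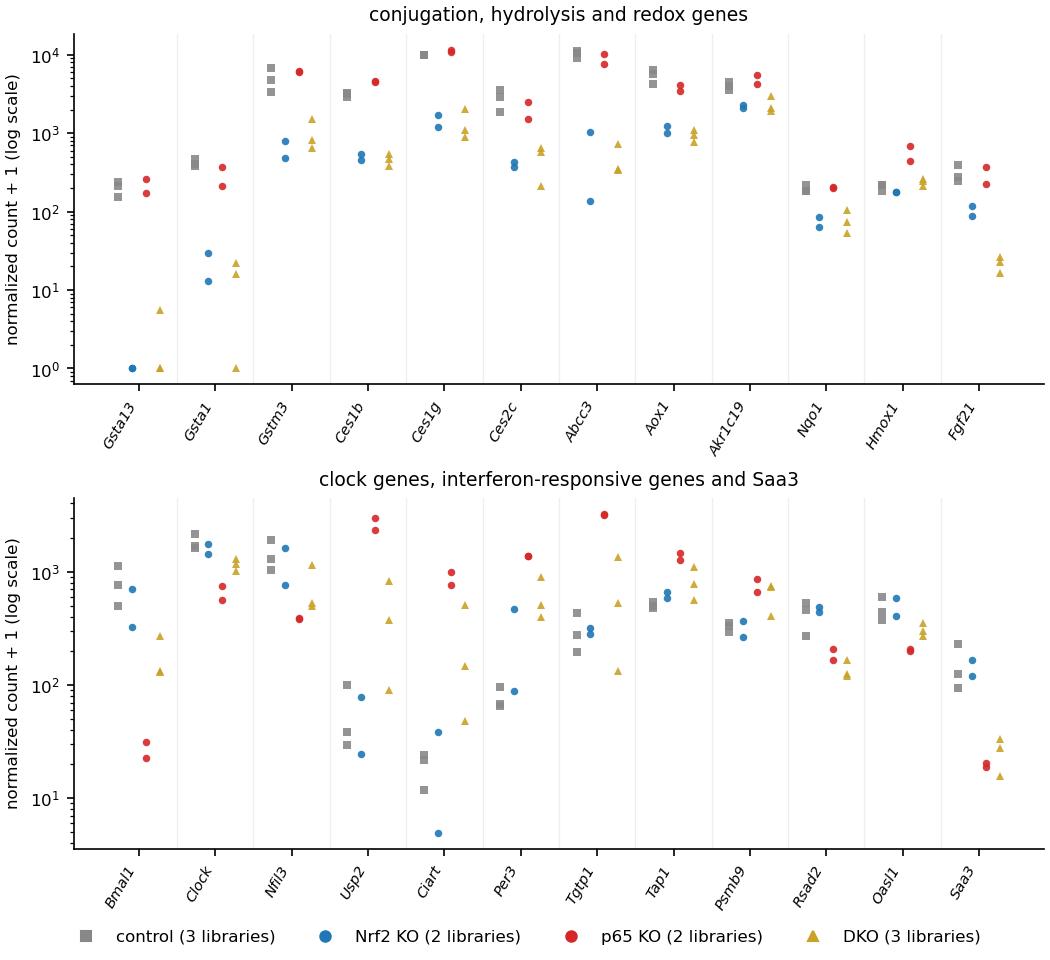
Normalized counts plus 1 (y axis, log scale) of 12 detoxification and redox genes (top) and of 12 clock, interferon-responsive and acute-phase genes (bottom), with 1 symbol per library. In the top panel the Nrf2 KO libraries (blue) lie below the p65 KO libraries (red) in every gene, with DKO mostly beside Nrf2 KO. In the bottom panel the p65 KO libraries lie at the extreme of all genotypes in Bmal1, Clock, Usp2 and Tgtp1.

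Of 28 cytochrome P450 genes of drug metabolism, 3 were higher in p65 KO and none lower (median 0.12). Besides Cyp2a4 and Cyp2a5, Cyp2b10, the classical target of the receptor CAR, had 239 and 138 normalized counts in p65 KO and 24.7 and 32.3 in Nrf2 KO (2.71, adjusted p = 0.0178). It missed the threshold without Nrf2 KO replicate 1, Nrf2 KO replicate 2 or p65 KO replicate 1 (adjusted p between 0.0927 and 0.105). Alas1, the rate-limiting enzyme of heme synthesis, had 10105 and 11775 in p65 KO and 1786 and 1594 in Nrf2 KO (2.69, adjusted p = 0.0114). Its adjusted p was 0.0682 without Nrf2 KO replicate 1 and 0.0881 without replicate 2. Clpx, a mitochondrial chaperone that acts on ALAS proteins, changed in the opposite direction, with 1640 and 1644 in p65 KO and 7332 and 4522 in Nrf2 KO (-1.85, adjusted p = 0.00214). Dhrs3, a retinal reductase, was also lower, with 2956 and 2454 against 6592 and 6217 (-1.24, adjusted p = 0.00117), and Dhrs9, another short-chain dehydrogenase of retinoid metabolism, had 19.3 and 6.62 against 118 and 116 (-3.17, adjusted p = 0.00389). Clpx, Dhrs3 and Dhrs9 were separated in all 4 libraries, which was a condition for naming Dhrs9. Clpx, Dhrs3 and Dhrs9 stayed called without any 1 of the 4. Of the 22 genes of retinoid and heme metabolism, 1 was higher and 2 lower in p65 KO (median -0.44).

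In bile acid synthesis, 1 of 16 genes was lower in p65 KO, where 1.33% of all genes tested were called lower. A single gene is no result about the list, whose median of -0.12 turned to 0.05 when libraries were scaled to their totals. The gene was Hsd3b7, a dehydrogenase of the sterol ring, with 13300 and 10418 normalized counts against 26335 and 21632 (-1.02, adjusted p = 0.00709). It failed the fold threshold without Nrf2 KO replicate 1 (-0.87) or p65 KO replicate 2 (-0.85), and lost its call with all libraries under DESeq2, DESeq2's size factors, library totals or the filter on a mean of 10 counts. Of 18 male-biased liver genes 3 were lower in p65 KO (median -0.24), and of 20 female-biased genes 3 were higher (median 1.18). Elovl3, a male-biased fatty acid elongase, had 1424 and 1612 normalized counts in p65 KO and 16976 and 5848 in Nrf2 KO (-2.91, adjusted p = 0.00985). Serpina1e, an α1-antitrypsin gene, had 213918 and 226396 against 476938 and 547315 (-1.22, adjusted p = 0.0177), and Cyp4a12a a log2 fold change of -1.17. Fmo2, a flavin monooxygenase, had 108 and 251 in p65 KO and 30.6 and 17.8 in Nrf2 KO (2.90, adjusted p = 0.0262), and the remaining called female-biased genes were Cyp2a4 and Ntrk2. Without any 1 of the 4 libraries at most 1 of the male-biased and between 0 and 3 of the female-biased genes were called. Elovl3 stayed called only without Nrf2 KO replicate 2, Cyp4a12a only without p65 KO replicate 2, Fmo2 only without p65 KO replicate 1, and Serpina1e in none of these (adjusted p between 0.0608 and 0.107).

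The preparations were enriched for hepatocytes, and markers of the other liver cells were counted to see what else they held. All 14 Kupffer cell markers were higher in p65 KO (median 3.11), as were 8 of 12 markers of sinusoidal endothelial cells (median 1.63), 8 of 13 of stellate cells and fibroblasts (median 3.37, or 3.11 with Hand2, which had no count in Nrf2 KO, at its bound) and 3 of 12 of monocytes and dendritic cells (median 3.74, or 1.99 with 3 genes at 0 in Nrf2 KO at their bound). None of the 10 T and NK cell, 8 B cell, 5 cholangiocyte and 5 erythroid markers was called, 1 of 6 neutrophil markers was higher, and 1 of 20 hepatocyte markers was lower. None of these lists had called members in the opposite direction. Over all genes tested 3.86% were called higher and 1.33% lower in p65 KO. Lists with at most 1 called member therefore give no result about their cell type. In RNA of a bulk preparation, fewer cells of a type and less RNA per cell cannot be told apart.

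The summed normalized counts of the Kupffer markers were 856 and 275 in Nrf2 KO and 6406 and 4707 in p65 KO, against 395 to 993 in control and 1807 to 3041 in DKO. Endothelial markers summed to 2156 and 1139 in Nrf2 KO and 5653 and 4351 in p65 KO, and stellate markers to 415 and 212 against 2758 and 2683. The 2 p65 KO libraries had the highest sums of all 10 in these 3 lists, and Nrf2 KO replicate 2 the lowest in the Kupffer and stellate lists. The hepatocyte markers summed to 6810670 and 7879590 in Nrf2 KO and 5812800 and 5654160 in p65 KO, and the median log2 fold change over their 20 genes was -0.34. Among the defining markers, Cd3d had no count in any of the 4 libraries, Cd3e none in Nrf2 KO and 3.05 and 1.89 in p65 KO, Cd79a at most 1.98 and Epcam at most 2.42. S100a8 had 3.05 in p65 KO replicate 1 and 0 in the other 3 libraries. Hba-a1 and Hbb-bs, hemoglobin genes of erythroid cells, were not called, with 30.5 and 16.1 in p65 KO against 35.6 and 40.4 in Nrf2 KO for Hba-a1. Cd4, which dominated the T cell list, had 17.3 and 22.7 against 62.3 and 58.2 and was not called either (adjusted p = 0.0689). Itgax, Ccr2 and Ly6c2, the defining markers of monocytes and dendritic cells, had at most 26.4 in these 4 libraries. They were higher in p65 KO but not called (adjusted p between 0.0537 and 0.341).

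Among single markers, Cd5l, a secreted macrophage protein, had 1519 and 1033 normalized counts in p65 KO and 124 and 42.8 in Nrf2 KO (3.96, adjusted p = 0.00186). Marco, a scavenger receptor, had 262 and 165 against 13.8 and 2.42 (4.75, adjusted p = 0.00504), and Vsig4, a complement receptor, a log2 fold change of 3.34 (adjusted p = 0.00675). The Kupffer-specific lectin Clec4f had 1127 and 848 against 195 and 48.5 (3.04, adjusted p = 0.0145). In the stellate list Dcn, the proteoglycan decorin, had 808 and 890 against 95.9 and 54.2 (3.51, adjusted p = 0.00391), and Ecm1, a matrix protein, 865 and 771 against 148 and 55.0 (3.02, adjusted p = 0.00635). In the endothelial list Lyve1, a hyaluronan receptor, had 210 and 163 against 31.6 and 25.9 (2.70, adjusted p = 0.0099). No p65 KO library fell into the Nrf2 KO range in any of them. Cd5l, Marco, Vsig4, Dcn and Ecm1 stayed called without any 1 library. Clec4f missed the threshold without Nrf2 KO replicate 2 (adjusted p = 0.071) or p65 KO replicate 1 (0.0631), and Lyve1 kept its call only without p65 KO replicate 2. The endothelial list had 6 called members without Nrf2 KO replicate 1 or p65 KO replicate 2, and none without Nrf2 KO replicate 2 or p65 KO replicate 1. Kupffer markers numbered 12, 6, 7 and 12 without Nrf2 KO replicates 1 and 2 and p65 KO replicates 1 and 2, and stellate markers between 2 and 3. The other called members were Stab2, Kdr, Clec4g, Pecam1, Fcgr2b, Cdh5 and Gpr182 in the endothelial list, Reln, Colec11, Col1a1, Col1a2, Col3a1 and Hand2 in the stellate list, Lyz2, Fcgr1 and Itgam among monocyte and dendritic markers and Csf3r among neutrophil markers.

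**Figure D4:**
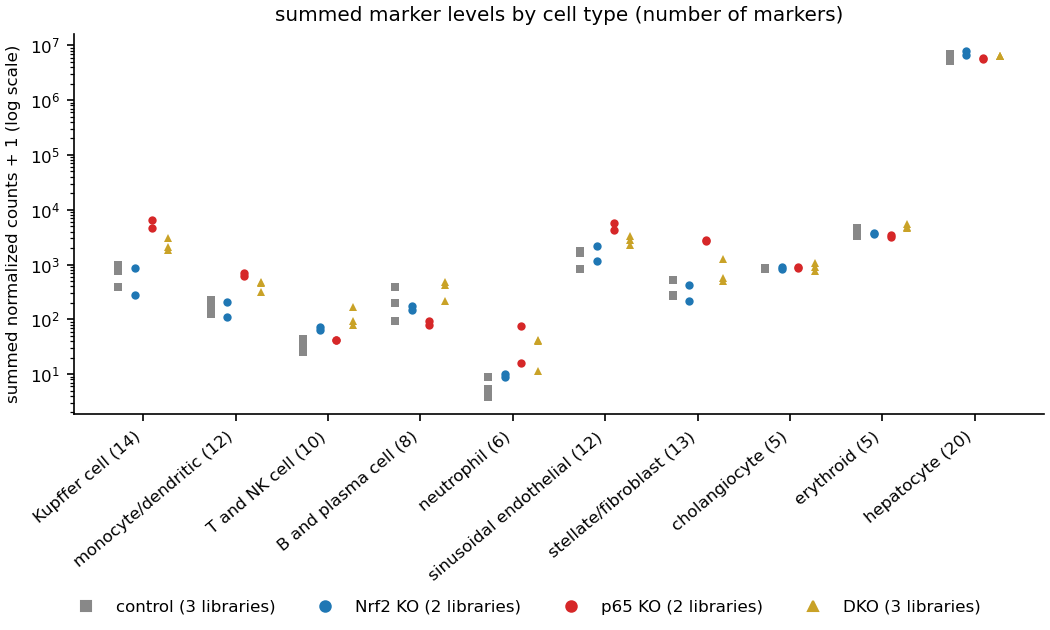
Summed normalized counts plus 1 (y axis, log scale) of the tested markers of 10 cell types, with 1 symbol per library and the number of markers in brackets. The p65 KO libraries (red) have the highest sums for Kupffer, sinusoidal endothelial and stellate markers, whereas the hepatocyte sums lie between 5133410 and 7879590 in all genotypes.

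Antigen presentation by MHC class II was higher in p65 KO. Of 11 genes tested, 8 were called higher and none lower, with a median of 4.09. The class II chains bind peptides for CD4 T cells and are made mainly by professional antigen-presenting cells. H2-Aa, the I-A alpha chain, had 972 and 785 normalized counts in p65 KO and 30.6 and 14.5 in Nrf2 KO (5.30, SE 0.553, adjusted p = 0.00117). H2-Ab1, its beta partner (chromosome 17, 34476663 to 34488393), had 725 and 603 against 32.6 and 32.3 (4.35, adjusted p = 0.00117), and H2-Eb1, the I-E beta chain, 596 and 506 against 28.7 and 19.4 (4.52, adjusted p = 0.00134). Nrf2 KO libraries lay with the control means of 33.8, 31.2 and 29.6, and the DKO means of 250, 270 and 236 in between. All 3 calls held without any 1 library, when between 5 and 6 genes of the list were called. The other called members were Cd74, Ciita, Ctss, H2-DMa and H2-DMb1. The summed Kupffer markers moved in the same direction (275 and 856 against 4707 and 6406), and so did those of monocytes and dendritic cells (108 and 206 against 606 and 707). Lyz2 dominated the latter sums in p65 KO, with 50.1 and 126 in Nrf2 KO and 422 and 506 in p65 KO. The part of these cells in the class II values was not tested.

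MHC class I presentation and immunoproteasome genes differed less. Of 21 tested, 2 were called higher (median 0.65). In 17 both p65 KO libraries lay above both Nrf2 KO libraries, as they did in 31.9% of all genes tested. Tap1, the peptide transporter, had 1275 and 1465 normalized counts in p65 KO and 666 and 582 in Nrf2 KO (1.13, adjusted p = 0.02), and Psmb9, an immunoproteasome subunit, 658 and 865 against 364 and 264 (1.28, adjusted p = 0.0208). Tap1 missed the threshold without any 1 of the 4 libraries (adjusted p between 0.0613 and 0.139), and Psmb9 kept it only without p65 KO replicate 1.

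Interferon-inducible GTPases, which attack the vacuoles of intracellular pathogens, were higher for 8 of 18 genes with none lower (median 1.49). Tgtp1 (chromosome 11, 48876154 to 48884999) had 3224 and 3149 normalized counts in p65 KO and 319 and 280 in Nrf2 KO (3.41, SE 0.763, adjusted p = 0.0217), and its near-identical copy Tgtp2 279 and 171 against 38.6 and 33.1 (2.65, adjusted p = 0.0356). Reads can be shared between them, and the sum was 3503 and 3320 against 358 and 314, 10.2 times higher. The DKO libraries spread from 132 to 1357 in Tgtp1. The remaining called members were Gm4841, Gbp2, Gbp5, Gbp7, Igtp and Irgm2. Both Tgtp genes missed the threshold without any 1 of the 4 libraries (adjusted p between 0.059 and 0.199), and 3 members of the list stayed called in each of these fits. The DKO mean was nearer to Nrf2 KO in all 8, whereas for MHC class II it was nearer to p65 KO in 7 of 8.

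Promoters of 4 called GTPase genes are shown because they share a site found in few other promoters. Capitals mark the interferon-stimulated response element, searched as TTTC, any 2 bases and TTTC, or its reverse complement.
Tgtp1: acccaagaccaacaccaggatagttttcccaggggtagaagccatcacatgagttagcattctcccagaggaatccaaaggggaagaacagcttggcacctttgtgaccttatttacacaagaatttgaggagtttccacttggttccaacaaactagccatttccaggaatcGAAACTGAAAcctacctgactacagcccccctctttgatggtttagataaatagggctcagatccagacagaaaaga
Igtp: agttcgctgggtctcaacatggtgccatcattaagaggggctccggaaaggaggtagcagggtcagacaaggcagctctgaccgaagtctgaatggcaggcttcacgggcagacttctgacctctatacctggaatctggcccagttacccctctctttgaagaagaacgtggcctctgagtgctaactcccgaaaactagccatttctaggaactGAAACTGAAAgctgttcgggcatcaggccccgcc
Irgm2: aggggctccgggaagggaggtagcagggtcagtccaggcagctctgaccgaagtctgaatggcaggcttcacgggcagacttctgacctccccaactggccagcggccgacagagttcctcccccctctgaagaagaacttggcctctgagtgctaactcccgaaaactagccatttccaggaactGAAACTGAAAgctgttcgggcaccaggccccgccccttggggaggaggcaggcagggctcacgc
Gbp2: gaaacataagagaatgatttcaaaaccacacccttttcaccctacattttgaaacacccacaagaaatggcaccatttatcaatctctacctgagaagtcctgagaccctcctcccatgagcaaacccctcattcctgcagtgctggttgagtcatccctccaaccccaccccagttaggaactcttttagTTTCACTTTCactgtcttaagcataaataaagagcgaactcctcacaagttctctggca
On GRCm38.p6 these 250 bases before the start are chr11:48992247-48992496 (Tgtp1, minus strand), chr11:58199306-58199555 (Igtp, plus strand), chr11:58214727-58214976 (Irgm2, plus strand) and chr3:142620413-142620662 (Gbp2, plus strand). Tgtp1, Igtp and Irgm2 held the same 10 letters, GAAACTGAAA, 77 to 68, 34 to 25 and 64 to 55 bases before the start, and Gbp2 held TTTCACTTTC 59 to 50 bases before it. The motif stood in 9 of the 10 GTPase promoters matched, also in those of Irgm1 and Gbp3, which were not called (0.66 and 1.07). It stood in 2.83% of all promoters, in 6.8% of the 412 matched promoters of genes higher in p65 KO and in 2.82% of the 142 of genes lower in p65 KO.

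Type I interferon-stimulated genes had no common direction. Of 28 tested, 3 were higher and 2 lower in p65 KO (median -0.20). Rsad2, the antiviral protein viperin, had 208 and 166 normalized counts in p65 KO and 486 and 437 in Nrf2 KO (-1.30, adjusted p = 0.0208), and Oasl1, a regulator of Irf7 translation, 207 and 198 against 589 and 407 (-1.29, adjusted p = 0.0128). Oasl2 was higher in p65 KO, with 122 and 87.0 against 34.6 and 15.4 (2.07, adjusted p = 0.022), as were Oas2 and Zbp1. Rsad2 missed the threshold without any 1 of the 4 libraries (adjusted p between 0.0703 and 0.102), Oasl1 kept it only without Nrf2 KO replicate 2 (0.0204) and Oasl2 only without Nrf2 KO replicate 1 (0.0452).

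None of the 26 NF-κB subunits, kinases and feedback inhibitors was called (median 0.15). As 5.19% of all genes tested were called, this is no result about the list. Chuk, which encodes the kinase IKKα, had 3600 and 3884 normalized counts in p65 KO and 4144 and 4195 in Nrf2 KO (-0.16, adjusted p = 0.378), and the feedback inhibitors Nfkbia and Tnfaip3 had log2 fold changes of 0.14 and 0.13. Of 19 inflammatory NF-κB targets, 5 were higher and 1 was lower in p65 KO (median 1.14). The lower one was Saa3, an acute-phase serum amyloid, with 19.3 and 18.0 in p65 KO and 120 and 165 in Nrf2 KO (-2.93, SE 0.494, adjusted p = 0.00787). Nrf2 KO lay with the control mean of 149 and p65 KO with the DKO mean of 24.8. Vcam1, a leukocyte adhesion molecule, had 222 and 164 in p65 KO and 22.7 and 6.47 in Nrf2 KO (3.74, adjusted p = 0.00562). Lcn2, an iron-scavenging acute-phase protein, had 185 and 222 against 18.8 and 57.4 (2.39, adjusted p = 0.014). Csf1, Il1b and Irf1 were the other called members. Vcam1 stayed called without any 1 library. Saa3 had an adjusted p of 0.0519 without p65 KO replicate 1, and Lcn2 one of 0.0679 without Nrf2 KO replicate 1 and 0.053 without p65 KO replicate 2. Endothelial and Kupffer marker sums were higher in p65 KO as well, and their part in the values of Vcam1 and Il1b was not tested.

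Of 29 acute-phase genes, 5 were higher and 1 was lower in p65 KO (median 0.21). They were Serpina3c, Lcn2, Mt1, Mt2 and Steap4, and Saa3. Mt2, a metal-binding metallothionein, had 378 and 555 normalized counts in p65 KO and 90.0 and 76.0 in Nrf2 KO (2.49, adjusted p = 0.0178), but kept its call only without p65 KO replicate 1. The abundant secreted proteins changed little, such as Hp (-0.50), Fgb (-0.51) and Crp (-0.12), none of which was called. Of 17 chemokines 4 were higher (median 1.14, or 0.94 with Ccl4, at 0 in Nrf2 KO, at its bound), namely Cxcl16, Ccl6, Ccl24 and Cxcl14, and at most 1 was called without any 1 of the 4 libraries. Cxcl16 had 142 and 176 against 38.6 and 55.0 (1.76, adjusted p = 0.0246), and missed the threshold without any 1 of them (adjusted p between 0.0708 and 0.142). The kappa B motif, searched as GGGA, any 2 bases and TTCC, stood in 3 of 14 matched promoters of the inflammatory list (Csf1, Cxcl1 and Cxcl2), and in 1.16% of all, 2.67% of the higher and 1.41% of the lower genes' promoters.

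Genes of the circadian clock differed in both directions, by the phase in which they peak. The clock is a loop in which Bmal1 and Clock activate Per, Cry and output genes through E-boxes, whose products then repress them. Of 6 clock genes that peak with Bmal1, 3 were lower in p65 KO and none higher (median -1.46). Of 13 that peak with Per2, 6 were higher and none lower (median 1.85). By the study's methods both the injection and the killing took place before noon, and the hour for each animal is not given in the sources used here.

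Bmal1 (chromosome 7, 112806152 to 112914735) had 30.5 and 21.7 normalized counts in p65 KO and 700 and 323 in Nrf2 KO (-4.29, SE 0.57, adjusted p = 0.00255). Clock, its partner, had 748 and 560 against 1740 and 1446 (-1.29, adjusted p = 0.00474), and Nfil3, a D-box repressor, 387 and 378 against 1603 and 764 (-1.63, adjusted p = 0.043). Usp2, a rhythmic deubiquitinase (chromosome 9, 43978264 to 44006924), had 2312 and 2955 in p65 KO and 23.7 and 77.6 in Nrf2 KO (5.66, SE 0.935, adjusted p = 0.00707). Ciart, a repressor of the Bmal1 complex (chromosome 3, 95785815 to 95789991), had 997 and 759 against 3.95 and 37.2 (5.34, adjusted p = 0.0129), and Per3 1384 and 1380 against 87.0 and 467 (2.31, adjusted p = 0.0336). The other called members were Per2, Tef and Bhlhe40.

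Nrf2 KO replicate 2 lay closer to p65 KO than replicate 1 did in Bmal1, Nfil3, Usp2, Ciart and Per3, and most in Dbp, a gene that was not called, with 87.0 and 1719 in Nrf2 KO and 3627 and 3589 in p65 KO. Bmal1 and Clock stayed called without any 1 of the 4 libraries. Usp2 and Ciart missed the threshold without Nrf2 KO replicate 1 (adjusted p = 0.0608 and 0.0769), and Per3 and Nfil3 kept it only without Nrf2 KO replicate 2 (0.00781 and 0.0496). In all, 1 of the Per2-phase genes was called without Nrf2 KO replicate 1 and 8 without replicate 2, and 3 without either p65 KO library. The control mean was nearer to Nrf2 KO in all 9 called clock genes.

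The promoters of Ciart and Per3 are shown for the sites by which clock factors act. Capitals mark the E-box CACGTG in Ciart (chr3:95882229-95882478) and the D-box TTATGTAA in Per3 (chr4:151044666-151044915), in the 250 bases before the start on the minus strand of GRCm38.p6.
Ciart: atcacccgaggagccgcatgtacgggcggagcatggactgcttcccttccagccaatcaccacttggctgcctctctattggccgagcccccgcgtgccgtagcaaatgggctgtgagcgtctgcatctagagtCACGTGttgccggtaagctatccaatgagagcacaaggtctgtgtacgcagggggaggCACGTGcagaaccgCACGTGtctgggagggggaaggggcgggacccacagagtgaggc
Per3: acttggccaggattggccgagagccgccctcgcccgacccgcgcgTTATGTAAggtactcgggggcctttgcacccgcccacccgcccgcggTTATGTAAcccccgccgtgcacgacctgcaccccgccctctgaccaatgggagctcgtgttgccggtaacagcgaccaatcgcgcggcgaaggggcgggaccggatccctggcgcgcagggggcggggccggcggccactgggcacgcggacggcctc
Ciart held 3 E-boxes, at 116 to 111, 58 to 53 and 44 to 39 bases before the start, and Per3 held 2 D-boxes, at 205 to 198 and 158 to 151. An E-box stood in 4 of the 11 matched promoters of the Per2-phase list (Bhlhe41, Ciart, Per1 and Tef) and in 8.16% of all promoters. Its share was 7.52% among promoters of genes higher and 7.75% among those of genes lower in p65 KO, and that of the D-box 1.46% and 1.41%. All motifs were counted on both strands, each on its own also where 2 overlapped.

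Mitotic genes were among those higher in p65 KO, while most genes of the S phase and G1 were not called. All 9 proliferation genes named by the study were called (median 4.82, or 4.12 with Aurkb and Kntc1, at 0 in Nrf2 KO, at their bound). The study chose these genes on these samples, so their direction is not independent evidence. Of 28 G2/M genes 12 were higher and none lower (median 2.80, or 2.35 with 5 genes at 0 in Nrf2 KO at their bound), and of 24 S phase genes 3 were higher and none lower (median 0.82). Most G2/M genes were scarce, with a median over the list of 25.2 normalized counts, and many passed the filter on low counts only through the libraries in which they were high. Ccne1, cyclin E1, had 197 and 304 normalized counts in p65 KO and 15.8 and 46.1 in Nrf2 KO (3.00, adjusted p = 0.00635). Cdc20, an activator of the anaphase-promoting complex, had 80.3 and 104 against 0.99 and 15.4 (3.42, adjusted p = 0.0245). Mki67, named by the study, had 65.02 and 92.6 against 2.97 and 2.42. No p65 KO library overlapped the Nrf2 KO libraries in these. The other called G2/M genes were Kif20a, Ccnb2, Prc1, Birc5, Ccna2, Hmmr, Cenpf, Dlgap5, Nuf2, Ttk and Cenpe, the other S phase genes Ccne2 and Uhrf1, and the other proliferation genes Cdk1, Tpx2, Top2a, Ube2c, Ccnb1, Ncapg, Aurkb and Kntc1.

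Among G1 regulators, Ccnd2, cyclin D2, was higher with 137 and 86.0 against 34.6 and 10.5 (2.32, adjusted p = 0.0351), and Cdkn1a, which encodes the inhibitor p21, was lower with 120 and 75.6 against 750 and 187 (-2.26, adjusted p = 0.0305). The other 13 of 15 were not called. Ccne1 stayed called without any 1 library, Cdc20 and Cdkn1a only without Nrf2 KO replicate 2, and Ccnd2 only without Nrf2 KO replicate 1. Between 2 and 4 of the 9 proliferation genes were called without any 1 of the 4 libraries. G2/M genes numbered 1 without either Nrf2 KO library, 5 without p65 KO replicate 1 and 4 without p65 KO replicate 2. For all 9 proliferation genes and all 12 called G2/M genes the DKO mean was nearer to p65 KO, against 282 of the 527 genes called higher in p65 KO (53.5%). The study chose the 9 genes on these same samples, so the place of DKO in them is not independent evidence. The G2/M list was written with earlier results of these data known. Many of its genes passed the filter only through libraries in which they were high. The place of DKO in the 12 G2/M genes is thus not independent evidence either. Kupffer and stellate marker sums were higher in the same libraries, and which cells held these transcripts was not tested.

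Genes of lipid and glucose metabolism differed in single members rather than as lists. Over all genes tested 3.86% were called higher and 1.33% lower, so that a single member is no result about its list. Of 28 PPARα targets, Fgf21 was higher and Pdk4 lower (median -0.19). Fgf21, a hormone released by the liver in fasting and stress, had 366 and 226 normalized counts in p65 KO and 117 and 88.1 in Nrf2 KO (1.53, adjusted p = 0.016), and the DKO mean was lower still at 21.0. Pdk4, which inhibits pyruvate dehydrogenase, had 21.3 and 34.97 against 281 and 72.7 (-2.63, adjusted p = 0.0226). Cyp4a10 and Cyp4a14 had 1852 and 1967 against 4296 and 3361, and 729 and 729 against 2992 and 1094, and neither was called. Fgf21 kept its call only without p65 KO replicate 2 and Pdk4 only without Nrf2 KO replicate 2.

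Of 18 fatty acid synthesis genes, 2 were lower in p65 KO and none higher, with a median of -0.14 that turned to 0.04 when libraries were scaled to their totals. Pnpla3, a lipase of lipid droplets, had 11.2 and 10.4 normalized counts in p65 KO and 131 and 189 in Nrf2 KO (-3.88, adjusted p = 0.0484), and Elovl5, a fatty acid elongase, 9526 and 9265 against 25811 and 20255 (-1.29, adjusted p = 0.0404). Pnpla5, a paralog of Pnpla3, had 1.02 and 3.78 against 176 and 150 (-5.99, adjusted p = 0.0411). Controls lay between both knockouts in Pnpla3, with values from 13.3 to 62.0. Pnpla3, Pnpla5 and Elovl5 missed the threshold without any 1 of the 4 libraries (adjusted p between 0.107 and 0.2). None of 23 cholesterol genes was called (median 0.26), which is no result about the list where 5.19% of all genes tested were called. Sc5d, a late enzyme of the pathway, had 20814 and 20156 against 33158 and 33192 (-0.70, adjusted p = 0.0717).

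Of 22 genes of gluconeogenesis and glycolysis, Eno1 was higher and Igfbp1 lower, with a median of -0.13 that turned to 0.05 when libraries were scaled to their totals. Igfbp1, a secreted binding protein of insulin-like growth factors, had 3414 and 1044 normalized counts in p65 KO and 16905 and 12141 in Nrf2 KO (-2.70, adjusted p = 0.0282). Ppp1r3g, which targets a phosphatase to glycogen, had 95.5 and 69.9 against 536 and 945 (-3.16, adjusted p = 0.0448). Tat, tyrosine aminotransferase and the hepatocyte marker that was called, had 30931 and 22510 against 72410 and 43003 (-1.11, adjusted p = 0.0496). Igfbp1 kept its call only without p65 KO replicate 1, and Ppp1r3g and Tat missed the threshold without any 1 of the 4 libraries (adjusted p between 0.0638 and 0.285). Of 17 immediate early and stress genes Fosb was lower, with 36.6 and 2.84 against 383 and 244 (-4.00, adjusted p = 0.0304), and missed the threshold without any 1 of them (adjusted p between 0.0519 and 0.123). Of 20 genes of the integrated and ER stress responses Fgf21 alone was called (median 0.21). As 5.19% of all genes tested were called, a single call is no result about either stress list.

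**Figure D5:**
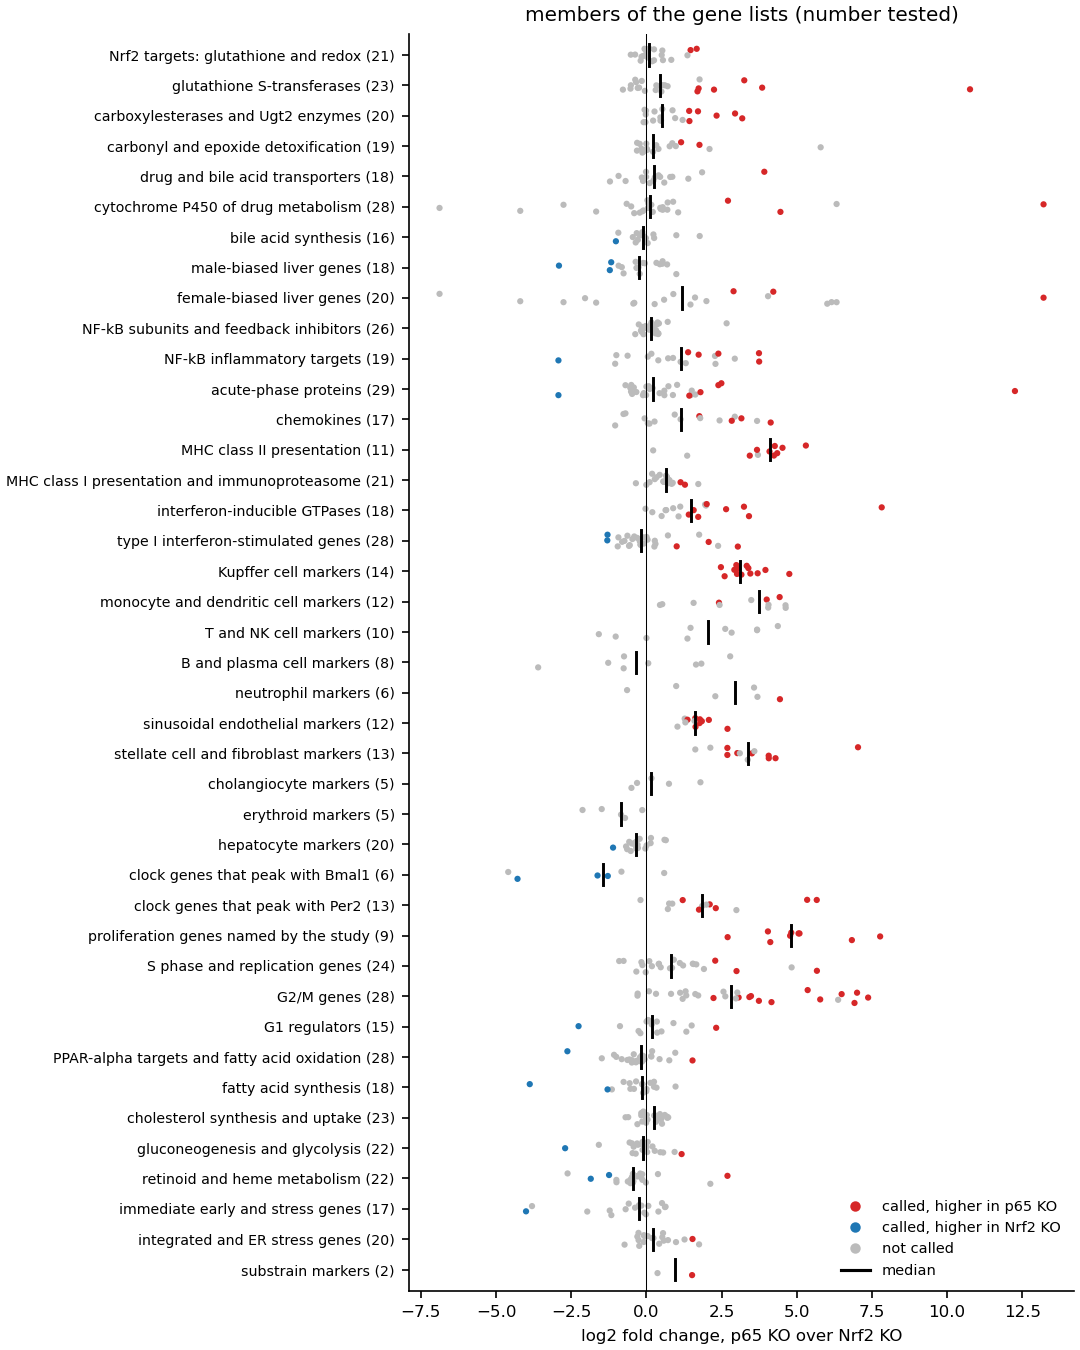
Log2 fold change of p65 KO over Nrf2 KO (x axis) of the tested members of 41 gene lists, with the number tested in brackets, 1 point per gene and the median as a bar. Kupffer markers and MHC class II genes lie to the right with medians of 3.11 and 4.09, the Bmal1-phase clock genes to the left with -1.46, and the NF-κB subunits near 0 with 0.15.

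In 157 of the 708 called genes all 3 control libraries lay between both knockouts, 112 higher and 45 lower in p65 KO. This was the case in 657 of all 13641 genes tested (4.82%). Called genes were selected for a gap between both knockouts, which leaves room for controls, so the shares cannot be compared. In 15 of the called genes the control mean was also at least 1 log2 unit away from each knockout, and the mean over the 4 libraries was 50 or more. In Serpina3c, Cyp2a4, Cyp2a5, Tsku, Bhlha15, Marco, Mthfd1l, Rad51b, Scara5, Slc16a5 and Cdca3 the control values lay above Nrf2 KO and below p65 KO, and in Pnpla3, Fam131c, Rab36 and Zfp618 the other way round. None of the 15 passed the threshold for Nrf2 KO against control (adjusted p between 0.147 for Fam131c and 0.836 for Cyp2a4). For p65 KO against control, Serpina3c, Cyp2a4, Cyp2a5, Bhlha15, Marco, Mthfd1l and Scara5 passed it. The others, Tsku among them, did not (adjusted p between 0.0533 for Rad51b and 0.268 for Pnpla3). Tsku had between 797 and 1471 in control, against 1955 and 4699 in p65 KO and 165 and 54.2 in Nrf2 KO. Scara5, a ferritin receptor, had 373 and 460 in p65 KO, 35.6 and 9.70 in Nrf2 KO and between 43.3 and 204 in control. The 15 genes were singled out after their values were seen, and the order of the groups in them was fixed by that choice.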

How the data were processed

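RNA of freshly isolated hepatocytes was sequenced as poly-A selected, stranded, single-end reads of 100 bases, with 10 libraries in all. With Salmon 1.10.3 the authors assigned the reads to GENCODE M33 transcripts (GRCm39), and the deposited values are whole-number estimated counts per gene. Although the name of the table speaks of normalization, library totals differ and size factors run from 0.879 to 1.26, so no normalization was assumed. No column was left over. Salmon divides reads between near-identical transcripts, so values of close paralogs are uncertain, and the sums of the families named are given.

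The quasi-likelihood test of edgeR 4.0.16 (R 4.3.3, TMM normalization) was run on the estimated counts in 1 model of the 4 genotypes over 10 libraries. The contrast was p65 KO minus Nrf2 KO and held no control mean. Control and DKO libraries informed only scaling and spread, since the 4 libraries alone leave 2 degrees of freedom. Benjamini-Hochberg adjustment covered all 13641 genes. Standard errors were derived from the F statistic. A gene was set at its bound where every library of a group was at 0, with a floor of 3 counts per library. Counting intervals cover counting error only. Scripts were tested on simulated data.

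Genes named with values are Nfe2l2 and Rela; the 12 called genes with the largest change in each direction averaging 50 or more normalized counts without overlap; the 8 with the lowest p; and, per list, up to 3 called members of at least 50, or the most abundant member where none was called, with 3 defining markers for other cell types. Further members of lists are named to account for them, after their values were seen. Some genes that meet this rule are not reported here. The members of the 41 lists were chosen with earlier results of these data known. Gene positions are from GENCODE M39 (21926 identifiers matched) and promoters from RefSeq on GRCm38.p6 (10562 of 13641 genes matched). Alternatives were DESeq2 1.42.0, limma 3.58.1, other scalings, filters and sets of libraries, the replicate number as a block, and leaving out each library in turn. Figures were drawn with matplotlib 3.10.9.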

Additional observations from a re-analysis of the deposited data

How the results depend on the processing

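The 708 called genes became 959 with DESeq2, 697 with DESeq2's size factors in edgeR, 782 with library totals, 705 with upper-quartile scaling, 825 with limma on log2(normalized count + 1), 765 without the filter, 682 with a filter on a mean of 10 counts, 856 with only the 4 libraries and 608 without the control libraries. Leaving out 1 of the 10 libraries gave between 234 and 765 calls, between 117 and 578 of them higher and between 72 and 191 lower in p65 KO, between 45 and 90 among the named genes and between 61 and 153 among the list members. Where an arm was left with 1 library, that library was assumed to vary like the other groups. Over all these settings no called named gene changed its direction, whereas Rela, Chuk, Alas2, Epcam, Cd79a and S100a9, which were not called, changed sign. Of the 88 named genes called, 71 stayed called under the 10 settings that leave out no single library, 34 without any 1 of the 4 libraries compared, and 16 lost the call whichever of these was left out. With no single library left out, Tat lost it under 7 of the 10 settings, Pnpla3 under 6 and Hsd3b7 under 4, and library totals also ended the calls of Cyp4a12a, Elovl5, Nfil3 and Ppp1r3g. Library totals shift all fold changes by about 0.18, which lowers the number of genes called higher in Nrf2 KO to 110.

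The replicate number as a block gave 546 calls (387 higher and 159 lower). Same-numbered libraries deviated together with a correlation of 0.121 over 11646 genes, but with 2 pairs the numbers name the libraries only.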

Other observations

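Several genes on distal chromosome 4 differed together. Zfp982, a zinc finger gene (147545583 to 147601280, GRCm39), had 148 and 113 normalized counts in p65 KO and 1.98 and 0 in Nrf2 KO. The 2 reads in Nrf2 KO gave a ratio of 146 with a 95% counting interval from 40.1 to 1215 (edgeR, adjusted p = 0.000722). Miip, an inhibitor of cell migration (147945232 to 147953273), had 456 and 407 in p65 KO and 88.0 and 72.7 in Nrf2 KO, a log2 fold change of 2.43 (SE 0.206, adjusted p = 0.000455). Both calls held without any 1 of the 4 libraries. Within 5 Mb of Zfp982, 11 of 70 other genes tested were called (15.7%), 9 higher and 2 lower in p65 KO, among them Dhrs3, Zfp984, Miip, Fbxo44, Srm, Pik3cd, Eno1, Per3, Klhl21 and Zbtb48. The share over all genes was 5.19%, and the window was chosen after these values were seen. The sums of Eno1 and Eno1b overlapped between the groups, and the division of reads between both genes is uncertain. Without p65 KO replicate 2, Eno1 had a log2 fold change of 0.96. That of Per3 was 1.56 without Nrf2 KO replicate 1 and 3.99 without replicate 2. Around the targeted genes, 3 of 47 were called within 5 Mb of Nfe2l2 (6.38%) and 3 of 208 within 5 Mb of Rela (1.44%). Within 10 Mb, 18 of 177 were called around Zfp982 (10.2%), 7 of 90 around Nfe2l2 (7.78%) and 9 of 237 around Rela (3.80%). Per chromosome the share ran from 3.10% on chromosome 16 to 8.84% on chromosome 1.

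Nnt, a mitochondrial transhydrogenase gene that is partly deleted in C57BL/6J mice, had 2581 and 1941 normalized counts in p65 KO and 1046 and 536 in Nrf2 KO (log2 fold change 1.52, SE 0.326, edgeR adjusted p = 0.0194), against a control mean of 727 and a DKO mean of 1068. It missed the threshold without Nrf2 KO replicate 2 (adjusted p = 0.128) or p65 KO replicate 1 (0.102). Wdfy1, the other gene listed as a marker of the substrain, had 279 and 295 against 204 and 241 and was not called (0.37, adjusted p = 0.548). The part of the mouse lines' backgrounds in these values was not tested.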
